A study of Mus musculus with 6 samples.

Results

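miR-26 and miR-101 are small families of microRNAs (miRNAs) that are known to bind the Ezh2 transcript. The array carried 5 mouse members, mmu-miR-26a-5p, mmu-miR-26b-5p, mmu-miR-101a-3p, mmu-miR-101b-3p and mmu-miR-101c (the prefix is left out below), out of 1247 mouse miRNAs. They were chosen by name, with earlier results of these data known, and all 5 were present on all 6 arrays. The samples were 3T3-L1 cells, a mouse embryonic fibroblast line that forms fat cells in culture, taken on day 8 of differentiation. One group (n = 2) had received interleukin-6 (IL-6), an inflammatory cytokine that working muscle also releases, at 1 ng/ml from the start of differentiation, and the control group (n = 4) had received none. All cells had stood confluent for 48 h and were then given isobutyl-methylxanthine at 0.5 mmol/l, dexamethasone at 1 µmol/l, insulin at 2 µmol/l and rosiglitazone at 2 µmol/l for 3 days, insulin alone for 3 days, and serum medium for the last 2 days. In the IL-6 group the medium was renewed every 24 h. The labels do not say whether the controls were fed on the same schedule. Nor do they name separate cultures within a group, and p-values then cover just the variation among these arrays, part or all of which may be technical.

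Ezh2 is the catalytic subunit of Polycomb repressive complex 2, which methylates a lysine of histone H3 and so keeps genes silent. In preadipocytes Ezh2 is known to silence Wnt genes, whose products hold back fat cell formation. miRNAs pair with target transcripts mainly through the seed, bases 2 to 8 from the 5′ end, and lower the target's stability and translation. Both families are known to repress Ezh2, miR-26 is also known to promote adipocyte differentiation, and miR-101 is best known for its loss in tumours with high EZH2. Ezh2 itself was not measured, since the array reads only miRNAs.

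The mature sequences are shown because the members of a family differ at so few bases that their probes may share signal. They come from RefSeq on GRCm38.p6, run 5′ to 3′, and have the seed in capitals.
miR-26a-5p: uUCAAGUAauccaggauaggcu
miR-26b-5p: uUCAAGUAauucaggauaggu
miR-101a-3p: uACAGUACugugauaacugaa
miR-101b-3p: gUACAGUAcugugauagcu
miR-101c: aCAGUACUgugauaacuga

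Both miR-26 members carried the seed UCAAGUA, which no other of the 1679 mature mouse miRNAs in the RefSeq table had. Counted from the 5′ end of miR-26a-5p, the substitutions towards miR-26b-5p were C11U and C21U, both outside the seed. The miR-101 members shared one core in different registers. As listed, miR-101b-3p starts 1 base upstream of miR-101a-3p, so its seed is UACAGUA and not ACAGUAC. Within the bases that both hold, the substitution was A16G, counted from the 5′ end of miR-101a-3p. miR-101c starts at base 2 of miR-101a-3p and lies wholly within it, with the seed CAGUACU. None of the 3 miR-101 seeds was shared with another mature miRNA in that table.

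miR-26a-5p is encoded at 2 loci, chr9:119031811-119031832 on the plus strand inside Ctdspl and chr10:126995543-126995564 on the plus strand inside Ctdsp2. miR-26b-5p lies at chr1:74394324-74394344 on the plus strand inside Ctdsp1. The 3 host genes encode related phosphatases that act on the tail of RNA polymerase II. miR-101a-3p lies at chr4:101346957-101346977 on the minus strand inside the long non-coding RNA gene E130102H24Rik. miR-101b-3p lies at chr19:29135338-29135356 on the plus strand inside the protein-coding gene Rcl1, which encodes a factor of ribosomal RNA processing. miR-101c lies at chr9:3038680-3038698 on the minus strand, with no gene around it in the table used. Exon and intron positions within these genes were not used here.

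The longer of each member's probes is shown because it limits what each value can mean. The part that pairs with the miRNA is given 5′ to 3′, and capitals mark bases mismatched to one other member, which is the other miRNA for the miR-26 pair, miR-101b-3p for miR-101a-3p, and miR-101a-3p for both remaining members.
miR-26a-5p probe: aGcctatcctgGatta
miR-26b-5p probe: AcctatcctgAattacttga
miR-101a-3p probe: ttcagTtatcacagtactgta
miR-101b-3p probe: ttcagCtatcacagtact
miR-101c probe: tcagttatcacagtactgt

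The miR-26a-5p probe paired with that miRNA over all 16 bases and with miR-26b-5p over 13. The miR-26b-5p probe paired over all 20 bases with its own miRNA and over 18 with miR-26a-5p. The miR-101a-3p probe paired over all 21 bases with its own miRNA, over 19 with 0 mismatches to miR-101c, which ends short of it, and over 17 with 1 mismatch to miR-101b-3p. The miR-101b-3p probe paired with 15 of its 18 bases to the listed mature miR-101b-3p, whose 3′ end falls 3 bases short of it, and with 17 to miR-101a-3p. Both miR-101c probes paired over their whole length, 18 and 19 bases, with miR-101a-3p as well, so signal of miR-101a-3p and miR-101c on the miR-101c probes cannot be told apart. Both miR-101c probes pair in full with the listed mature miR-101c, yet their target was not found in a hairpin sequence listed for Mir101c. A missing hairpin entry would have given the same result. For every other member, the hairpins of its own loci held the target of its probes. The reason was not tested. The miR-101 values below are therefore not 3 independent measurements. No binding test between members was available, and how much each probe takes up of the other members was not tested.

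Every member was detected on every array. Each had 40 spots per array, and all 240 spots per member over the 6 arrays were well above background, with 0 saturated. Values below are scaled intensities in arbitrary units, brought to a common 75th percentile over the arrays. Probes differ in how they take up label, so the levels of different miRNAs are not set against each other.

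miR-26a-5p read 1327 and 1350 on IL-6 arrays 1 and 2, against 1298, 1333, 1308 and 1259 on control arrays 1 to 4. The groups overlapped, since IL-6 array 1 lay below control 2. The mean was 1338 ± 16.6 (SD, n = 2) on IL-6 arrays, against 1299 ± 30.6 (SD, n = 4) on control arrays, and errors of means below are SDs over the same arrays. The log2 difference, IL-6 minus control, was 0.04 ± 0.05 (SE), a ratio of 1.03 with a 95% confidence interval of 0.944 to 1.12 (limma adjusted p = 0.679). The 4 controls spanned 1.06-fold, and only 14 of the 299 tested miRNAs had a smaller log2 SD among controls.

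miR-26b-5p read 413 and 333 on IL-6 arrays 1 and 2, against 432, 448, 394 and 352 on control arrays 1 to 4. It was the most variable member in both groups, spanning 1.24-fold between the IL-6 arrays and 1.27-fold among the controls, and the groups overlapped. The means were 373 ± 56.9 with IL-6 and 406 ± 42.7 in controls. The log2 difference was -0.13 ± 0.13, a ratio of 0.916 with an interval of 0.731 to 1.15 (limma adjusted p = 0.636). Within an array, the coefficient of variation over the spots of a miR-26b-5p probe was 2.05% to 5.58%. Both probes of miR-26b-5p were highest on control 2 and lowest on IL-6 array 2, with a Pearson r of 0.95 between them over the 6 arrays, as a description.

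miR-101a-3p read 98.7 and 96.0 on the IL-6 arrays, against 94.3, 98.9, 108.6 and 99.9 on control arrays 1 to 4. Both IL-6 values lay inside the control range. The log2 difference was -0.04 ± 0.08, a ratio of 0.971 with an interval of 0.851 to 1.11 (limma adjusted p = 0.781). This is the member whose mature sequence the miR-101c probes pair with in full.

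miR-101b-3p read 69.1 and 67.6 on the IL-6 arrays, against 73.5, 70.8, 80.1 and 76.4 on control arrays 1 to 4. miR-101c read 45.4 and 44.6 on the IL-6 arrays, against 48.4, 46.5, 56.4 and 52.1 on control arrays 1 to 4. For both, the 2 IL-6 arrays lay close together and below all 4 controls on this scale, while without scaling between arrays both differences had the opposite sign, as given below. The means of miR-101b-3p were 68.3 ± 1.06 with IL-6 and 75.2 ± 4.0 in controls, and those of miR-101c were 45.0 ± 0.520 with IL-6 and 50.8 ± 4.40 in controls. The log2 difference of miR-101b-3p was -0.14 ± 0.08, a ratio of 0.909 with an interval of 0.800 to 1.03 (limma adjusted p = 0.313). That of miR-101c was -0.17 ± 0.10, a ratio of 0.888 with an interval of 0.752 to 1.05 (limma adjusted p = 0.333).

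**Figure D1:**
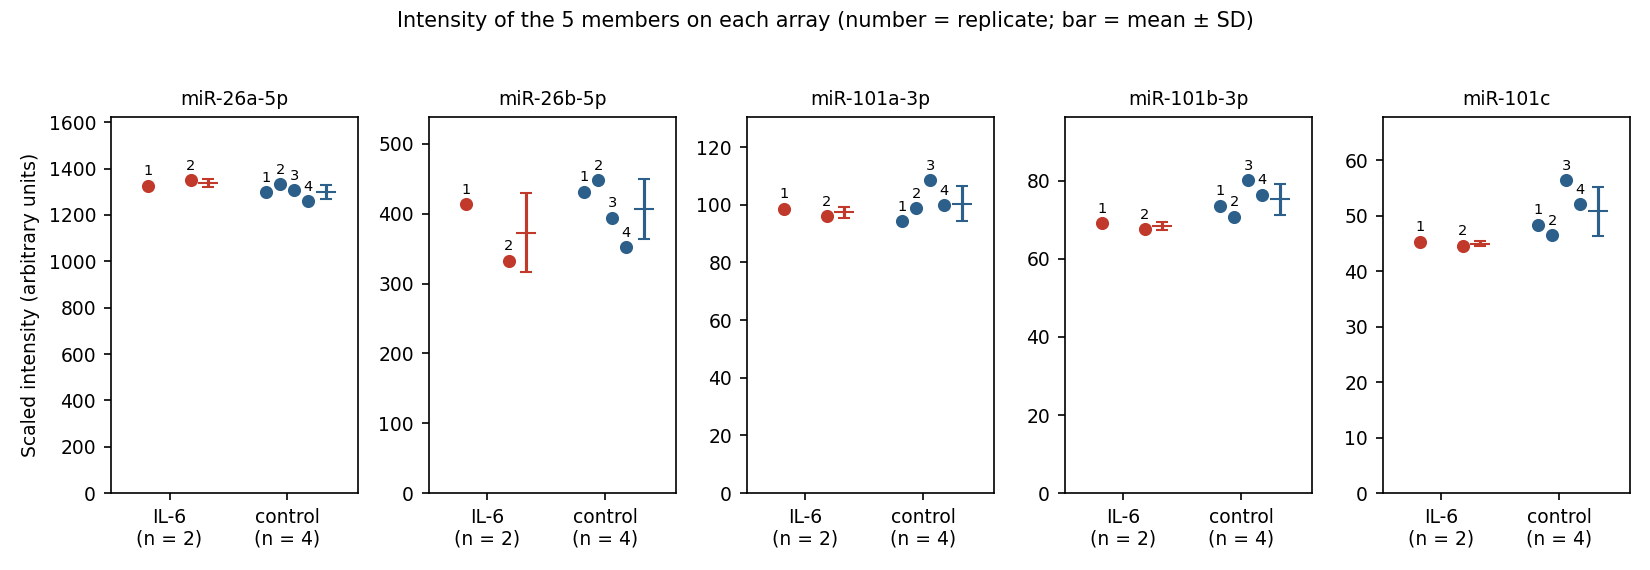
Scaled intensity (arbitrary units, linear, from 0) of each member on the 2 IL-6 arrays and the 4 control arrays, numbered by replicate, with the mean and SD of each group beside the points. On this scale the IL-6 points lie below all controls for miR-101b-3p and miR-101c and overlap the controls for the other members.

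No member passed the threshold of 0.05 on limma's Benjamini-Hochberg adjusted p. Of all 299 tested miRNAs, 1 (0.334%) passed it with a higher level under IL-6 and 0 with a lower one. The same fit gave an unadjusted p under 0.05 for 32 higher (10.7%) and 36 lower (12%), and for 0 of the 5 members. Both IL-6 arrays lay below all controls for 2 of the 5 members, against 65 of all 299 tested miRNAs (21.7%). Their probes overlap in what they pair with, so these are not 2 independent observations. The miR-101a-3p probes, which overlap those of miR-101c without a mismatch, gave IL-6 values inside the control range. A negative difference was seen for 4 of the 5 members, with 165 of 299 (55.2%) over all tested miRNAs, whose median difference was -0.02.

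**Figure D2:**
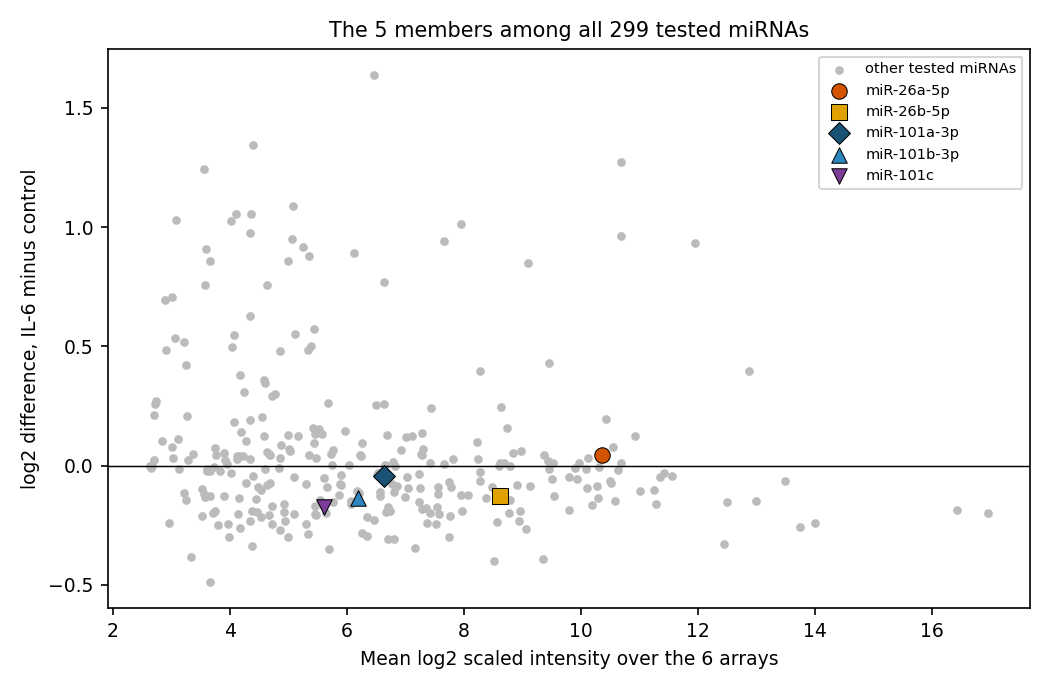
Mean log2 scaled intensity over the 6 arrays (x axis) against the log2 difference, IL-6 minus control (y axis), for the 5 members and the other tested miRNAs, 299 in all. The members lie between -0.17 and 0.04, within the main band of points around 0.

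Both probes of each member gave a difference of the same sign. The miR-26a-5p probes gave 0.06 and 0.03 and the miR-26b-5p probes -0.17 and -0.10 on the log2 scale, IL-6 minus control. The probes of miR-101a-3p gave -0.04 and -0.05, those of miR-101b-3p -0.15 and -0.13, and those of miR-101c -0.20 and -0.16. None of these 10 probes passed the adjusted threshold, and the smallest limma adjusted p among them was 0.251, for a probe of miR-101c. Of all 571 tested probes, 6 (1.05%) passed it with a higher level under IL-6 and 0 with a lower one. All 4 probes of miR-101b-3p and miR-101c were below the control range on both IL-6 arrays, as were 118 of all 571 probes (20.7%). Over the 6 arrays, the 2 probes of a member followed each other with Pearson r of 0.22 for miR-26a-5p, whose spread was small, and of 0.89 to 1.00 for the others, as a description.

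**Figure D3:**
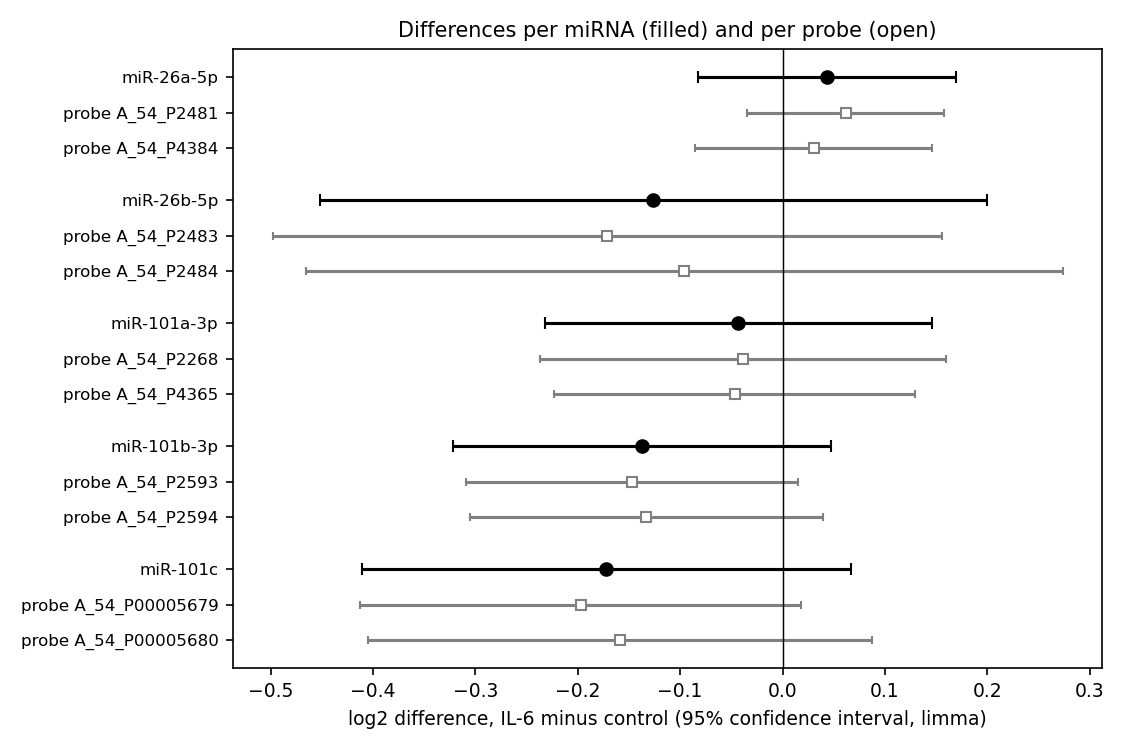
log2 difference, IL-6 minus control, with limma's 95% confidence interval for each member (filled circles) and each of its probes (open squares, probe names on the y axis). Every interval includes 0, and the probes of miR-101b-3p and miR-101c lie farthest below it relative to their width.

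The sign of these differences depended on how the arrays were brought to one scale. Without any scaling, all tested miRNAs had a median difference of 0.27, and the differences were 0.25 for miR-101a-3p, 0.16 for miR-101b-3p, 0.12 for miR-101c, 0.17 for miR-26b-5p and 0.34 for miR-26a-5p. With the 75th percentile taken over all mouse probes, the median of all tested miRNAs was -0.13 and miR-26a-5p gave -0.07. Measured against the median of all tested miRNAs, the order was steadier. miR-101b-3p and miR-101c lay below it in all 24 alternative settings, by 0.05 to 0.19 and by 0.04 to 0.29 on the log2 scale, and miR-26a-5p lay above it in all 24, by 0.04 to 0.12. miR-101a-3p and miR-26b-5p were each below it in 21 of 24. Subtracting this median removes any factor common to an array, so settings that differ only in such a factor nearly agree by construction. For miR-101b-3p the result was -0.12 as reported and with the 75th percentile over all mouse probes, and -0.11 without scaling. The 24 settings are therefore not 24 separate checks. No member passed the threshold in any of the 22 alternatives that give a test, and the smallest limma adjusted p was 0.121.

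**Figure D4:**
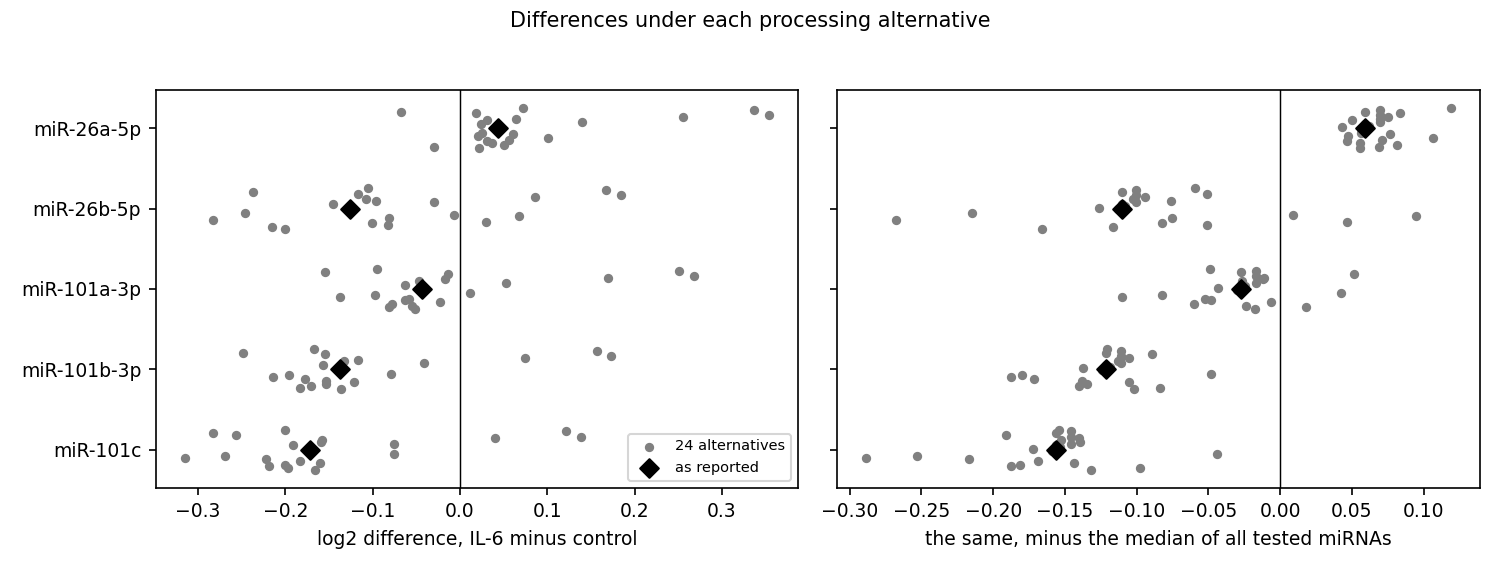
log2 difference of each member, IL-6 minus control, under 24 processing alternatives (grey) and as reported (black diamond), on the left as computed and on the right after subtracting the median of all tested miRNAs. Each member's points lie on both sides of 0 on the left, while on the right miR-26a-5p stays above 0 and miR-101b-3p and miR-101c stay below it. On the right, settings that differ only by a factor common to each array nearly coincide by construction.

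Ratios of members within an array do not depend on any scaling by 1 factor per array, since the factor cancels, but quantile normalization changes them. The log2 ratio of miR-26b-5p over miR-26a-5p was -1.68 and -2.02 on the IL-6 arrays, against -1.59, -1.57, -1.73 and -1.84 on control arrays 1 to 4. The groups overlapped, and the means differed by -0.17 (exact two-sided permutation p = 0.267, and 0.267 after Benjamini-Hochberg adjustment over the 2 ratios). IL-6 array 1 lay at the control mean of -1.68, so this difference rests on IL-6 array 2. Leaving out 1 array at a time gave -0.34 to -0.00051. The log2 ratio of miR-101b-3p over miR-101a-3p was -0.52 and -0.51 on the IL-6 arrays, against -0.36, -0.48, -0.44 and -0.39 on control arrays 1 to 4. Here both IL-6 arrays lay below all controls on this ratio, and the means differed by -0.09 (exact two-sided permutation p = 0.133, adjusted 0.267). The 15 ways to split 6 arrays into 2 and 4 allow no p below 0.0667, so neither ratio could have reached 0.05. After quantile normalization the differences of the 2 ratios were -0.13 and -0.14 (exact two-sided permutation p = 0.333 and 0.0667, unadjusted). A log2 ratio between probes has no absolute meaning, and only its change between groups is described.

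The 6 arrays shared 1 slide. The controls filled columns 1 to 4 of its first row, and the IL-6 arrays columns 3 and 4 of its second, so slide row and group cannot be told apart. miR-26b-5p was lower in column 4 than in column 3 in both groups, at 333 against 413 with IL-6 and 352 against 394 in controls. Its log2 ratio over miR-26a-5p was lower there too, at -2.02 against -1.68 with IL-6 and -1.84 against -1.73 in controls. Within column 3 the difference of miR-26b-5p was 0.07 and within column 4 -0.08 on the log2 scale, 1 array against 1 with no test. With the column as a block it was -0.01 (limma adjusted p = 0.960), against -0.13 without the block. Within columns 3 and 4 the differences of miR-101b-3p were -0.21 and -0.18, and those of miR-101c were -0.32 and -0.22, 1 array against 1. miR-101a-3p gave -0.14 and -0.06 and miR-26a-5p 0.02 and 0.10 within the same columns. Column 3 sets the array that was brightest before scaling, IL-6 array 1, against the dimmest, control 3.

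**Figure D5:**
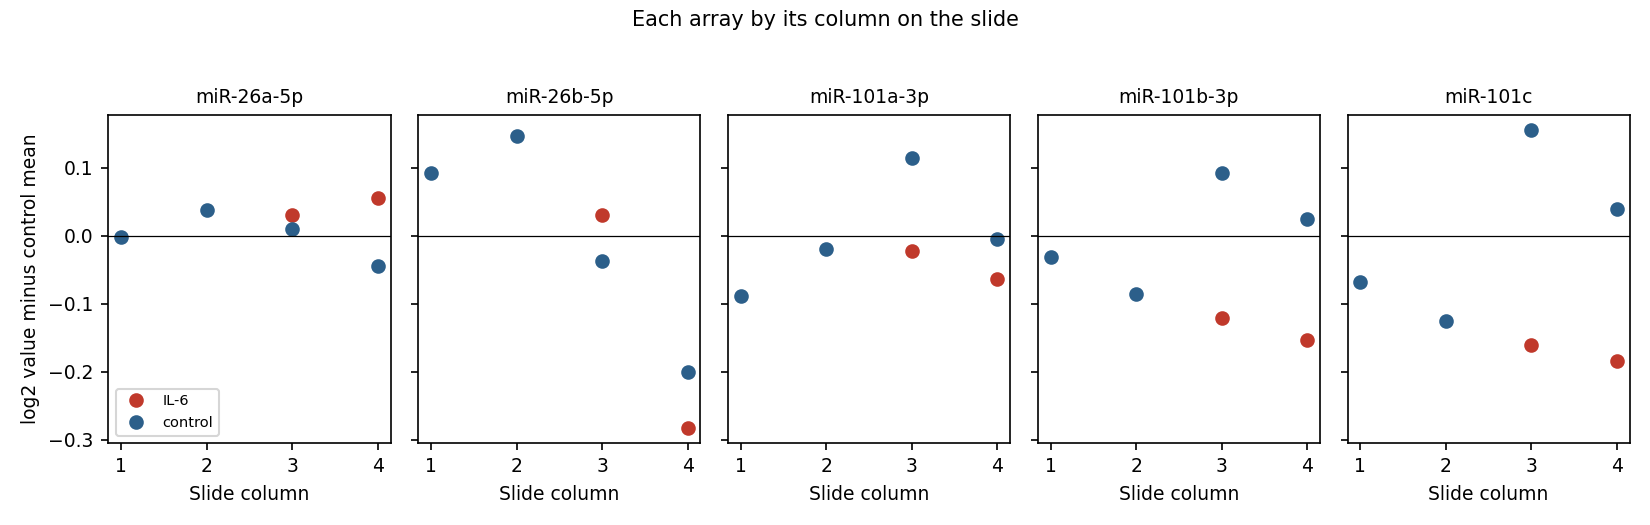
log2 value of each array minus the mean of the controls (y axis), against the array's column on the slide (x axis), for IL-6 and control arrays. miR-26b-5p is lowest in column 4 in both groups, and the IL-6 points of the 3 miR-101 members lie below the control in the same column.

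Control array 3 gave the highest value of all 3 miR-101 members. It was also the dimmest array, with a 75th percentile of 248 before scaling, against 343 to 440 on the other 5. This percentile was 343 on control 4, 347 on control 1, 369 on IL-6 array 2, 396 on control 2 and 440 on IL-6 array 1. From the dimmest to the brightest array, miR-101c read 56.4, 52.1, 48.4, 44.6, 46.5 and 45.4. In that order miR-101b-3p read 80.1, 76.4, 73.5, 67.6, 70.8 and 69.1, and miR-101a-3p 108.6, 99.9, 94.3, 96.0, 98.9 and 98.7. Without control array 3 the log2 difference was -0.18 for miR-101b-3p (limma adjusted p = 0.159), -0.20 for miR-101c (0.191) and -0.08 for miR-101a-3p (0.448), while the median of all tested miRNAs was -0.10. Relative to that median, miR-101b-3p was then at -0.08 and miR-101c at -0.10, against -0.12 and -0.16 with all arrays. Numbers of detected miRNAs were 300 and 313 on the IL-6 arrays and 268 to 294 on the control arrays. The part of array brightness in the members' values was not tested otherwise.

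Over the 6 arrays, miR-101b-3p and miR-101c varied almost as one, with a Pearson r of 0.99 between their log2 values. miR-101a-3p followed miR-101c with r of 0.79 and miR-101b-3p with r of 0.72. The miR-26 pair, which shares its seed but no locus, had r of 0.09. The probes of miR-26a-5p themselves followed each other with r of just 0.22, which limits any correlation of that member. All these correlations are descriptions over the same 6 arrays, which share scaling and slide. The miRNAs named next were picked as the highest among all tested, so high values of r follow partly from the picking. The tested miRNAs outside the members that ran most like miR-26a-5p were miR-497-5p (r = 0.93), miR-532-5p (0.89) and miR-205-5p (0.87). For miR-26b-5p they were let-7d-5p (r = 0.96), miR-10b-5p (0.95) and miR-30c-5p (0.93). For miR-101a-3p they were miR-328-3p, miR-22-3p and miR-542-3p, with r between 0.88 and 0.89. For miR-101b-3p they were miR-21a-5p (r = 0.97), miR-30a-5p (0.96) and miR-5100 (0.95), and for miR-101c miR-21a-5p (0.96), miR-30a-5p (0.93) and miR-22-3p (0.93).

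Each hairpin can also yield a miRNA from its other arm, usually the less stable strand. The array measured 5 of these, miR-26a-1-3p, miR-26a-2-3p, miR-26b-3p, miR-101a-5p and miR-101b-5p. None of the 5 was detected on any of the 6 arrays, by the rule that a share of 0.5 of a probe's spots lie well above background. Of 240 spots each, 3 of miR-101a-5p and 1 of miR-26b-3p were well above background. No difference is given for these miRNAs.

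Other miRNAs reported to target Ezh2, among them the let-7 family, were listed for comparison. Of 18 listed, 13 were tested, 8 with a positive and 5 with a negative difference, and 0 passed the adjusted threshold. Over all 299 tested miRNAs, 134 differences were positive and 165 negative. Of the 13, 1 lay above all controls on both IL-6 arrays and 0 below, against 13% and 21.7% of all tested miRNAs. Most of the 13 are of the let-7 family, so their counts and median are not independent and serve as a description only. Their median log2 difference was 0.02, against -0.02 over all 299 tested miRNAs, and they ranged from -0.09 to 0.20. let-7a-5p and let-7f-5p, the brightest of them, gave -0.03 and -0.05. The 5 that were not detected on any array were miR-124-3p, miR-137-3p, miR-138-5p, miR-217-5p and miR-32-5p. The median of the list was 0.31 without scaling between arrays and -0.09 with the 75th percentile of all probes, following the median of all tested miRNAs.

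Other miRNAs that promote fat cell formation in culture were the second list. Both lists were chosen with earlier results of these data known. The second also holds several members of the miR-30 family, so its counts are not independent and serve as a description only. Of 17 listed, 15 were tested, 1 with a positive and 14 with a negative difference (55.2% negative over all tested miRNAs), and 0 passed the adjusted threshold. Of the 15, 4 lay below all controls on both IL-6 arrays, against 21.7% of all tested miRNAs. Their median was -0.12, and without scaling between arrays it was 0.17. Relative to all tested miRNAs the median was below 0 in all 24 alternatives. Those that differ only in a factor common to an array nearly agree here by construction. miR-21a-5p and miR-103-3p, the brightest, gave -0.15 and -0.11. miR-143-3p and miR-378a-3p, which are abundant in adipocytes, gave -0.39 (limma adjusted p = 0.0845) and -0.19 (0.175). Their summed scaled intensity was 994 to 1009 on the IL-6 arrays and 1181 to 1329 on the control arrays. These sums depend on the scaling between arrays, as the list median does. miR-143-3p is also among the markers of mesenchymal cells and fibroblasts used below, so the pair is no readout of adipocytes alone. The part of this pair in the members' values was not tested, and fewer cells of a type cannot be told apart from less of a miRNA per cell.

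The labelled cell type was checked on miRNA markers. All 5 markers of mesenchymal cells and fibroblasts were detected. The 12 markers of liver, muscle, blood cells, neurons and endothelium were not detected on any array, and of 7 epithelial markers only miR-205-5p was detected. No miRNA is restricted to adipocytes, so the extent of differentiation could not be read from these arrays.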

How the data were processed

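The authors read the arrays with Agilent Feature Extraction 10.10.1.1, which per the file headers subtracted a background fitted over the slide from each intensity. Other deposited columns, with no unit, flag spots as uneven, outlying, saturated or well above background. The intensity values of the deposited series table equalled the scanner's total probe signal (largest difference 0) and served as an alternative. RNA input was 100 ng of total RNA, labelled with Cy3 on 1-colour mouse miRNA arrays, per the labels.

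Control spots (2164 of each array) and spots marked uneven or outlying were left out, and the rest averaged per probe. Probes with a share of 0.5 or more of their spots well above background were taken as detected. Arrays were scaled to the 75th percentile of the 502 probes detected on all arrays. Probes were averaged per miRNA, values below 6.25 set to that floor, and log2 taken. limma 3.58.1 in R 4.3.3 (lmFit, eBayes with a mean trend, two-sided, no covariate) was fitted over the 299 miRNAs detected on all arrays of a group, and p-values were adjusted by Benjamini-Hochberg with a threshold of 0.05. It was tested on simulated data drawn independently for each miRNA and array, with no effect common to an array, so scaling errors were not covered. Groups and replicate numbers came from sample titles, and miRNA names from the scanner files. For arrays, the number of samples limits the precision.

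The text names the 5 members, their other arms, the 3 miRNAs most correlated with each, and in each list those past the threshold and the 2 brightest. miR-143-3p, miR-378a-3p and miR-205-5p were named as markers, and undetected list members to account for the list. The members and lists were chosen with earlier results of these data known. Sequences and loci came from RefSeq, GRCm38.p6.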

Additional observations from a re-analysis of the deposited data

How the results depend on the processing

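Differences are log2, IL-6 minus control. None of 110 member values over 22 tested alternatives, and none of 200 probe values, passed the adjusted threshold, and the smallest limma adjusted p was 0.121 for members and 0.0583 for probes. Signs turned in 17 member values and 34 probe values, mostly with the scaling. Without scaling, with hybridisation spike-in scaling and with labelling spike-in scaling, miR-101a-3p gave 0.25, 0.27 and 0.17, miR-101b-3p 0.16, 0.17 and 0.075, miR-101c 0.12, 0.14 and 0.040, miR-26b-5p 0.17, 0.18 and 0.086, and miR-26a-5p, whose sign did not turn, 0.34, 0.35 and 0.26, against 0.04 as reported. The median of all tested miRNAs was then 0.27, 0.28 and 0.18. In the same order, the probes of miR-101c (A_54_P00005679, A_54_P00005680) gave 0.097, 0.11 and 0.015, and 0.13, 0.15 and 0.053. Those of miR-101a-3p (A_54_P2268, A_54_P4365) gave 0.25, 0.27 and 0.17, and 0.25, 0.26 and 0.17. Those of miR-101b-3p (A_54_P2593, A_54_P2594) gave 0.15, 0.16 and 0.066, and 0.16, 0.18 and 0.079. Those of miR-26b-5p (A_54_P2483, A_54_P2484) gave 0.12, 0.14 and 0.041, and 0.20, 0.22 and 0.12. With the 75th percentile over all probes, miR-26a-5p gave -0.068 and its probes (A_54_P2481, A_54_P4384) -0.050 and -0.081. With the scanner's total gene signal, miR-101a-3p gave 0.053 and miR-26a-5p 0.14, and with quantile normalization the miR-101a-3p probe A_54_P2268 gave 0.0095. Within slide column 3, miR-101a-3p gave -0.14, miR-101b-3p -0.21, miR-101c -0.32, miR-26b-5p 0.068 and the ratio of miR-26b-5p over miR-26a-5p 0.047, and within column 4 miR-26a-5p gave 0.10. With the column as a block, probe A_54_P2484 gave 0.034. The cause of these shifts was not tested.

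Leaving out 1 array gave -0.030 to 0.056 for miR-26a-5p, turned without control replicate 3, and -0.28 to 0.030 for miR-26b-5p, turned without IL-6 replicate 2. It gave -0.081 to -0.023 for miR-101a-3p, -0.18 to -0.12 for miR-101b-3p and -0.22 to -0.16 for miR-101c. For the turned probes it gave -0.016 to 0.11 (A_54_P2481), -0.040 to 0.041 (A_54_P4384) and -0.25 to 0.056 (A_54_P2484). A lone IL-6 array was then assumed to vary like the controls. Replicates 1 and 2 of both groups share a number, and the labels say nothing of pairing. Their deviations from the group means correlated at 0.06 and -0.34 over 299 miRNAs. The deviations of the 2 IL-6 arrays mirror each other by construction, so these values cannot show whether replicates were paired. With the replicate block, miR-101a-3p gave 0.012 and its probes 0.010 and 0.013, miR-101b-3p gave -0.079, miR-101c -0.075, miR-26b-5p -0.25 and miR-26a-5p 0.025, and 0 miRNAs were called.

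The count of all tested miRNAs past the threshold was 1 as reported. It was 0 with normexp, with the deposited series table and with the column block, 2 with all-probe scaling, the brightest probe or no detection filter (every miRNA above the floor on at least 1 array), 3 with the total gene signal, 7 with a lower floor, 34 without scaling, and 31 and 19 with the hybridisation and labelling spike-ins. Without IL-6 replicate 1, IL-6 replicate 2, control replicate 3 and control replicate 4 it was 5, 4, 0 and 31. The median of the other Ezh2-targeting miRNAs was 0.31, -0.090, 0.33 and 0.23 without scaling, with all-probe, hybridisation and labelling spike-in scaling. That of the miRNAs promoting adipocyte differentiation was 0.17, -0.23, 0.19 and 0.090, and -0.026 with the total gene signal. Labelling spike-in scaling and a floor over probes were chosen after seeing the data.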

Other observations

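For the probes of miR-26a-5p, miR-26b-5p and miR-101b-3p, the scanner files list positions on the mature miRNAs that RefSeq lists. For these members and miR-101a-3p they also list positions outside the hairpin genes. Examples are chr1:74440899-74440918 for miR-26b-5p and chr4:101019600-101019620 for miR-101a-3p. For miR-101a-3p the files give chr4:101346995-101347015, inside the Mir101a gene but beside the mature sequence at chr4:101346957-101346977, and for miR-101c chr9:3038715-3038732, inside Mir101c but beside the mature sequence at chr9:3038680-3038698. The probe sequences themselves pair in full with the mature miR-101a-3p and miR-101c. The files do not name the build of any of these positions. For the other members, only the positions on the mature miRNAs match GRCm38.p6.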
